A study of Sus scrofa with 11 samples.

Results

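The proteasome is the large protease that degrades proteins tagged with ubiquitin, and in skeletal muscle it carries much of the turnover of the contractile apparatus. Ubiquitin is activated by an E1 enzyme, passed to an E2 conjugating enzyme and attached to the substrate with the help of an E3 ligase. The tagged protein is then bound and unfolded by the 19S regulatory particle, a ring of ATPases with a lid of further subunits, and cut inside the 20S core, a barrel of alpha and beta rings. The genes described here are the rows whose pig Ensembl ID has a symbol starting with PSMA, PSMB, PSMC, PSMD, PSME, PSMF, PSMG, UBE2 or UBA followed by a digit. Of 82 such symbols in the table of gene IDs 52 had a row among the 25322 rows, and 47 of these reached at least 1 CPM (the count scaled to the size of the library) in at least 4 of the 11 pigs and were kept.

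RNA came from the longissimus lumborum, a back muscle, of 11 female pigs aged 23 weeks, each sampled after slaughter at the site also used for histology. The 7 fibre1 pigs had over 17% slow, oxidative type I fibres and under 70% fast, glycolytic type IIB fibres. The 4 fibre2B pigs had under 8% type I and over 70% type IIB fibres. The labels name no treatment or genetic change, and each pig is 1 replicate. Sequencing was by 50 single-end cycles with 5 technical repetitions, deposited as 1 column per pig. The groups were chosen by fibre share in a whole-muscle sample, so fewer cells of a type and less RNA per cell cannot be told apart in any value below. Depth ran from 14832736 to 36374829 counts per pig, and the kept genes took 0.267% to 0.374% of it. Of the 47 genes 35 had more than 100 counts in every pig, and the lowest was 7 counts, on UBE2H.

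Markers were read first. The 7 skeletal muscle fibre markers with a row (among them ACTA1, MYL1 and TNNC2) summed to between 125708 and 274160 CPM, and the 2 highest sums were those of fibre1 pigs 5 and 6. These 2 pigs also had the largest share of counts on the 10 most abundant nuclear genes, 45.2% and 44.1%, against 29.5% to 36.8% in the other pigs. The 4 slow-fibre markers with a row (TNNT1, TNNI1, TNNC1 and MYL3) summed to 7278 to 25515 CPM in fibre1 and 2310 to 8809 CPM in fibre2B. The highest sum was that of fibre1 pig 1, while the other fibre1 pigs reached at most 9657 CPM. Fibre2B pig 14 had the lowest sum. All 4 markers were higher in fibre1, with log2 fold changes from 0.76 ± 0.44 (TNNC1) to 1.15 ± 0.45 (TNNI1), but 0 passed the test between the groups. The 6 fibroblast markers with a row summed to 473 to 977 CPM in fibre1 and 746 to 1439 CPM in fibre2B, with 2 of 5 tested higher in fibre2B. The 9 immune cell markers with a row summed to 6.64 to 23.3 CPM in fibre1 and 15.0 to 29.9 CPM in fibre2B, with 0 of 9 passing. The 3 blood markers with a row (HBB, ALAS2 and HBM) summed to 137 to 468 CPM in fibre1 and 423 to 957 CPM in fibre2B, highest in pig 14. All 3 had values below 0, and HBB was higher in fibre2B (log2 fold change -1.27 ± 0.35, edgeR adjusted p = 0.041). Of 4 endothelium markers 0 passed, and of 4 adipocyte markers RBP4 passed, higher in fibre2B. The part of blood, fibroblasts or other cells in the values below was not tested.

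The kept set is an incomplete cut through each complex. The 20S core was represented by 5 of its standard subunits (PSMA1, PSMA3, PSMA5, PSMB1 and PSMB7). PSMA2, PSMA4, PSMA6, PSMA7, PSMB2, PSMB3 and PSMB4 had an ID but no row under it, and PSMB5 and PSMB6 had no ID in the name table. Of the 3 standard catalytic subunits only PSMB7 could be read. Whether rows without a symbol hold such genes was not tested. The 19S regulatory particle was represented by 13 genes, the E1 enzymes by 5 and the E2 family by 17. The remaining 7 kept genes were the activators PSME1, PSME2, PSME3 and PSME4, the inducible core subunit PSMB9, and the assembly chaperones PSMG3 and PSMD5. The 5 rows that missed the level were PSMA8, PSMB8 and PSMB11, each listed at 0 in every pig, PSMC3IP with at most 0.327 CPM and UBE2T with at most 0.109 CPM. PSMC3IP shares only its prefix with the proteasome, as it encodes a recombination factor. Mean CPM ran from 0.983 for UBE2H to 340.2 for PSMC5, but these values are not divided by transcript length and do not rank the genes by expression.

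The question was which genes of this machinery differ with the fibre makeup of the muscle. By edgeR's quasi-likelihood test, adjusted by Benjamini-Hochberg over all 11329 genes tested, 4 of the 47 genes passed at 0.05. PSMD12 and PSMA5 were higher in fibre2B, and UBE2O and UBE2D4 were higher in fibre1. The 4 genes are 8.51% of the 47, while 9.01% of all genes tested passed, so the share called was close to the background. By direction, 4.38% of all genes passed as higher in fibre1 and 4.63% as higher in fibre2B. That split of all calls, 496 to 525, became 53 to 104 when no scaling factors were used. An unadjusted p under 0.05 was reached by 11 of the 47 genes (23.4%), against 28.9% of all genes. Groups did not overlap in 3 of the 47 genes (6.38%), against 7.55% of all genes. Of these, 1 gene lay higher in fibre1, against 3.4% of all genes, and 2 lay higher in fibre2B, against 4.15%.

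Fold changes are given as log2, fibre1 minus fibre2B, on the scale of the fitted model. The median over the 47 genes was -0.0838, against 0.0073 over all genes tested, with 28 genes below 0 and 19 above. The median size of the change was 0.24 in the 47 genes and 0.32 over all genes. UBE2O alone changed by more than 2-fold. Standard errors ran from 0.11 (UBE2Z) to 0.43 (PSMB9). The spread between pigs of a group was also modest. The median coefficient of variation of the 47 genes was 18.8% in fibre1 and 14.6% in fibre2B. Over all genes tested, which include many genes with fewer counts, it was 25.2% and 21.6%. The part of the number of counts in that difference was not tested.

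**Figure D1:**
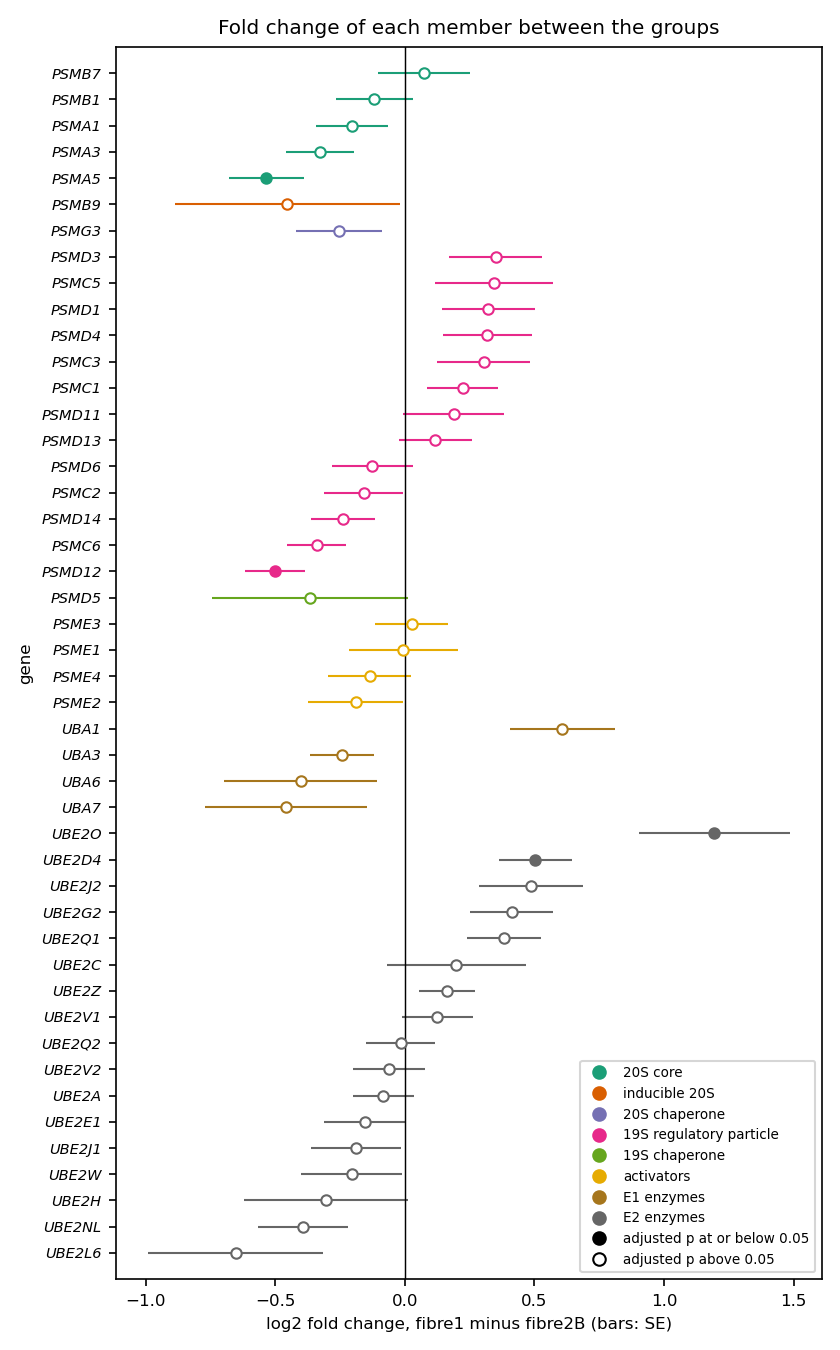
Log2 fold change (horizontal axis, fibre1 minus fibre2B, bars are standard errors) of 46 of the 47 genes, one per line, coloured by role. Filled points passed an adjusted p of 0.05: PSMA5 and PSMD12 lie left of 0, UBE2D4 and UBE2O right of it, and the other genes plotted are open.

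Among the 20S core genes, 4 of 5 had values below 0 and 1 passed, with a median of -0.20. PSMA5 (ENSSSCG00000006830) encodes an alpha ring subunit. In fibre2B it had 61.3 CPM in pig 10, 75.7 in pig 11, 96.7 in pig 14 and 66.8 in pig 16, and in fibre1 its lowest, median and highest values were 40.9, 53.5 and 61.8 CPM. With scaling factors the groups overlapped only through fibre1 pig 12, which lay just above fibre2B pig 10. By column totals fibre1 pigs 7 (64.0 CPM) and 12 (66.1 CPM) lay above fibre2B pig 10 (60.4 CPM). Fibre1 averaged 51.8 ± 6.40 CPM (SD, n = 7) and fibre2B 75.1 ± 15.5 CPM (SD, n = 4). The log2 fold change was -0.53 ± 0.15 (± is the SE here and for all log2 fold changes; edgeR adjusted p = 0.039). It still passed on leaving out pig 7, 12 or 17 of fibre1. When any other single pig was left out its adjusted p ran from 0.0504 to 0.153, the highest without fibre2B pig 14, where the log2 fold change was -0.38. It also missed the threshold with no filter on low counts (0.055), with no scaling factors (0.065), with the share of the 10 top genes as a covariate (0.060) and without fibre1 pigs 5 and 6 (0.106).

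The other alpha subunits had values on the same side without passing. PSMA3 (ENSSSCG00000005072) averaged 164 ± 20.1 against 205 ± 19.5 CPM, with a log2 fold change of -0.33 ± 0.13 (edgeR adjusted p = 0.115), and PSMA1 had -0.20 ± 0.14 (0.352). Of the beta subunits, PSMB1, which is not catalytic, had -0.12 ± 0.15 and PSMB7, the subunit with trypsin-like activity, had 0.0747 ± 0.18. PSMB7 turned to -0.0646 without fibre1 pigs 5 and 6 and to -0.18 with no scaling factors. In fibre2B the highest pig was pig 14 for all 5 core genes, and PSMA1, PSMA3, PSMA5 and PSMB1 had their highest value of all 11 pigs there. Pig 14 was the highest pig for 14 of the 47 genes (29.8%) and for 16.7% of all genes tested. It was also the lowest pig for 5 of the 47 genes (10.6%) and for 16.3% of all genes tested. Its library had the fewest counts (14832736), and the part of depth in these values was not tested. The core chaperone gene PSMG3, which helps to assemble the alpha ring, also had its highest value in pig 14 (11.5 CPM, against 5.71 to 9.13 CPM in the other pigs) and a log2 fold change of -0.25 ± 0.17.

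**Figure D2:**
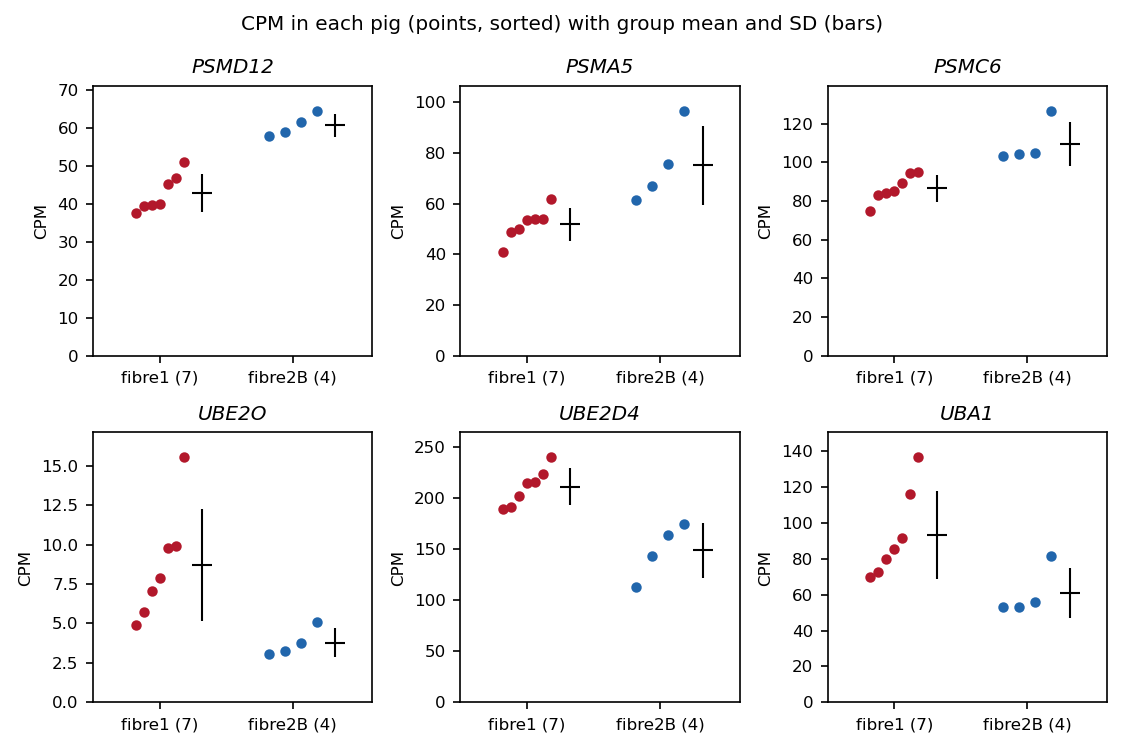
CPM (vertical axes, from 0) of 6 genes in each of the 7 fibre1 pigs (red) and 4 fibre2B pigs (blue), sorted within a group, with group means and SD as crosses. With scaling factors, as plotted, the groups do not overlap in PSMD12, PSMC6 and UBE2D4. In PSMA5, UBE2O and UBA1 they overlap through 1 pig each (fibre1 pig 12, fibre1 pig 17 and fibre2B pig 11).

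The 13 genes of the 19S regulatory particle did not share a direction: 8 had values above 0 and 5 below, with a median of 0.19, and 1 passed. That gene was PSMD12 (ENSSSCG00000017273), which encodes a subunit of the lid. It had 61.5, 64.6, 57.8 and 59.0 CPM in fibre2B pigs 10, 11, 14 and 16, and 37.7, 40.0 and 51.1 CPM as the lowest, median and highest of fibre1. Each fibre2B pig lay above each fibre1 pig. The means were 42.9 ± 4.94 CPM (n = 7) and 60.7 ± 2.995 CPM (n = 4), a log2 fold change of -0.50 ± 0.12 (edgeR adjusted p = 0.025), or 1.42-fold higher in fibre2B. Leaving out single pigs moved its log2 fold change only between -0.55 and -0.47. Its adjusted p rose above 0.05 on leaving out fibre1 pig 2 (0.0505), or of fibre2B pig 10 (0.062), 14 (0.074) or 16 (0.058). PSMD12 also missed the threshold with no scaling factors and without fibre1 pigs 5 and 6.

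PSMC6 (ENSSSCG00000005038), an ATPase of the base ring, also kept its groups apart with scaling factors but did not pass. It had 104, 127, 103 and 105 CPM in fibre2B pigs 10, 11, 14 and 16, and 75.0, 85.2 and 95.0 CPM as the lowest, median and highest of fibre1. By column totals the groups overlapped, with 106 CPM in fibre1 pig 7 and 103 CPM in fibre2B pig 10. The log2 fold change was -0.34 ± 0.11 (86.6 ± 7.01 against 110 ± 11.4 CPM, edgeR adjusted p = 0.074). PSMC6 passed in 3 of the 25 other settings: with DESeq2 (0.022), with limma-voom and quality weights (0.045) and with 1 surrogate variable (0.047). Of the other ATPases, PSMC2 had -0.16 ± 0.15, PSMC1 had 0.22 ± 0.14, PSMC3 had 0.30 ± 0.18 and PSMC5 had 0.34 ± 0.23. In the lid and base, PSMD14, the subunit that removes ubiquitin chains from the substrate, had -0.24 ± 0.12 (adjusted p = 0.215) and PSMD3 had 0.35 ± 0.18 (0.217). PSMD4, which binds ubiquitin chains, had 0.32 ± 0.17, PSMD1 had 0.32 ± 0.18, PSMD11 had 0.19 ± 0.19, PSMD13 had 0.12 ± 0.14 and PSMD6 had -0.13 ± 0.16. PSMD5, a chaperone of base assembly, had few counts (17 to 163 per pig) and -0.37 ± 0.38.

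In CPM with scaling factors, fibre1 pigs 5 and 6 stood high in part of the 19S genes. They were the 2 highest of all 11 for 6 of the 13 genes, namely PSMC1, PSMC3, PSMC5, PSMD3, PSMD4 and PSMD13, and for 4 of the other 34 genes, namely UBA1, UBE2D4, UBE2J2 and UBE2Q1. Those 10 genes are 21.3% of the 47, and pigs 5 and 6 were the 2 highest for 10.5% of all genes tested. PSMC5, for example, had 565 and 509 CPM in them and 265 to 362 CPM in the other 5 fibre1 pigs, with 254 to 362 CPM in fibre2B. Pigs 5 and 6 had the lowest scaling factors, 0.718 and 0.779 against 0.959 to 1.189 in the other pigs, which raises their CPM. By column totals PSMC5 had 405 and 397 CPM in them, and 413 CPM in fibre2B pig 11. PSMC1 likewise had 111 and 116 CPM in them, and 141 CPM in fibre2B pig 14. Without pigs 5 and 6 these 6 genes, whose lower values follow from how they were picked, had log2 fold changes of 0.0556 (PSMC5), 0.13 (PSMC3), 0.16 (PSMD3), 0.14 (PSMD4), 0.12 (PSMC1) and 0.0124 (PSMD13). The other 19S genes with values above 0 were PSMD1, at 0.31 in place of 0.32, and PSMD11, at 0.26 in place of 0.19. The median of the 13 genes was 0.0556 in place of 0.19. With no scaling factors the median was -0.0090, while that of all genes moved to -0.19. PSMD12 and PSMC6 had their lowest values of all 11 pigs in pig 6 and pig 5, and without both pigs they had -0.44 and -0.29. The share taken by the 10 most abundant genes and the muscle fibre marker sum stood apart in the same 2 pigs, and their part in these values was not tested.

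**Figure D3:**
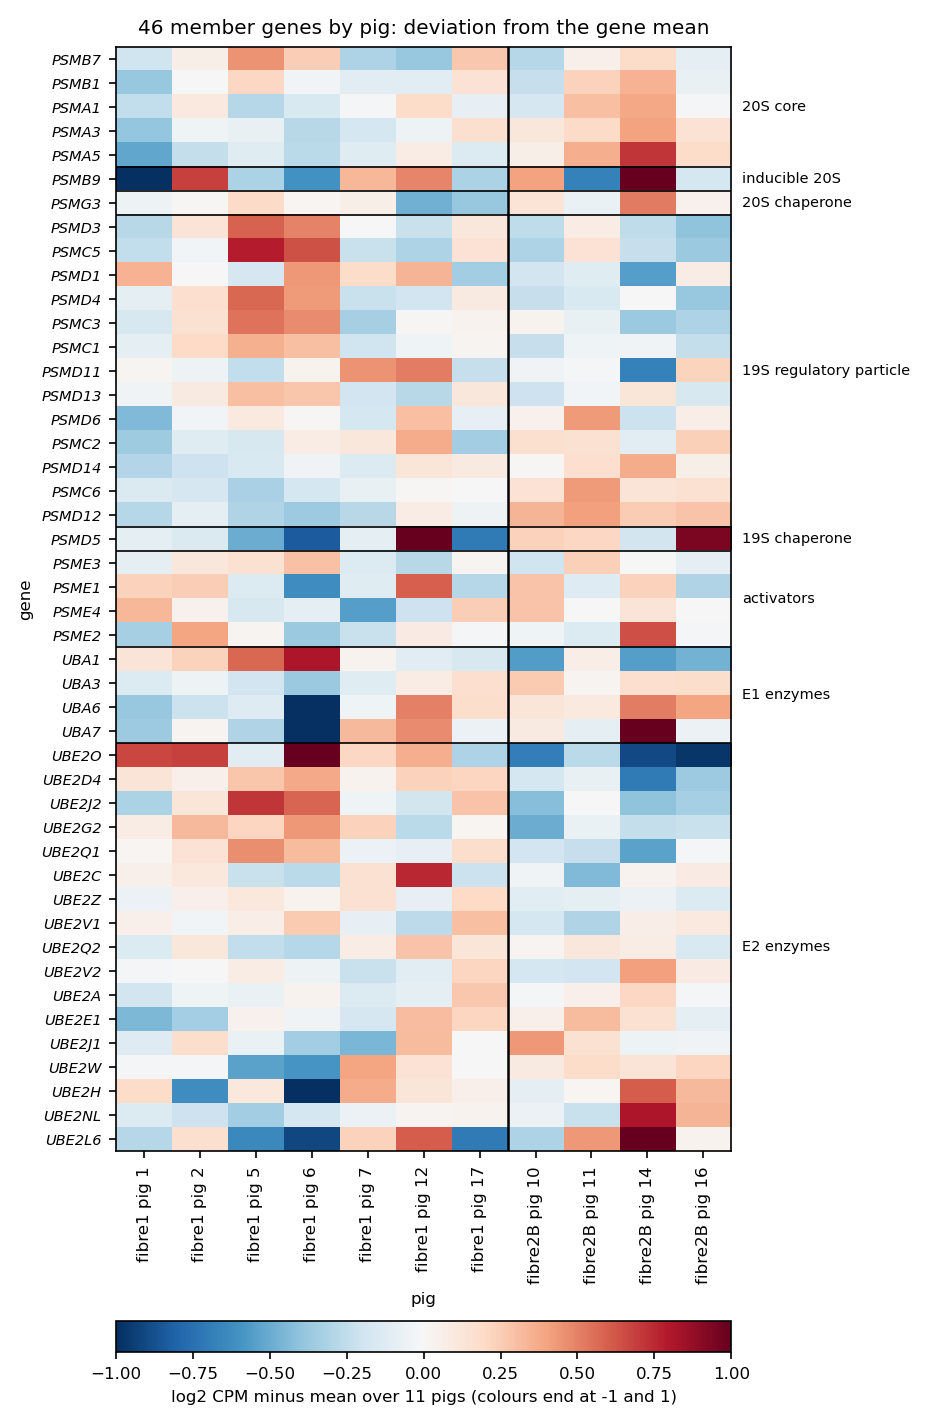
The same 46 genes (lines, grouped by role) in each of the 11 pigs (columns, fibre1 left of the black line), coloured by log2 CPM minus the mean of the gene over all pigs. PSMC5, PSMD3, PSMC3 and PSMD4 are reddest in fibre1 pigs 5 and 6, while UBE2L6, UBA7 and PSMB9 are reddest in fibre2B pig 14.

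The activators of the core had small values. PSME1 and PSME2, the subunits of the interferon-inducible PA28 ring, had -0.0054 ± 0.21 and -0.19 ± 0.18, PSME3, which forms the nuclear PA28 ring, had 0.0255 ± 0.14, and PSME4, a large single-chain activator, had -0.14 ± 0.16. With adjusted p from 0.517 to 0.989, 0 of these 4 genes passed in edgeR, and 0 had an unadjusted p under 0.05. The sign of PSME1 and PSME3 changed with the scaling: PSME1 was 0.0010 with DESeq2 size factors and PSME3 was -0.0083 with upper-quartile factors.

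Of the 5 E1 genes 4 had values below 0, and 0 passed by edgeR, with 1 at an unadjusted p under 0.05. That was UBA1 (ENSSSCG00000012270), the main E1 of ubiquitin. It had 53.0, 81.6, 53.3 and 56.2 CPM in fibre2B pigs 10, 11, 14 and 16, and 69.9, 85.2 and 137 CPM as the lowest, median and highest of fibre1. Fibre2B pig 11 lay inside the range of fibre1 and the other 3 fibre2B pigs below it. The means of 93.0 ± 24.5 and 61.0 ± 13.8 CPM gave a log2 fold change of 0.61 ± 0.20 (edgeR adjusted p = 0.074). UBA1 passed in 4 of the 25 other settings. These were DESeq2 (0.038), limma-voom with quality weights (0.029), and edgeR without fibre1 pig 12 (0.049) or without fibre2B pig 11 (0.048). Its log2 fold change was 0.39 without fibre1 pigs 5 and 6. The other E1 genes act on other modifiers or as a second ubiquitin E1. UBA3, of the NEDD8 pathway, had -0.24 ± 0.12 (33.9 ± 4.16 against 40.1 ± 2.60 CPM; adjusted p = 0.207), UBA6 had -0.40 ± 0.30 and UBA7, of the ISG15 pathway, had -0.46 ± 0.31.

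The 17 E2 genes were spread around 0, with 8 above and 9 below and a median of -0.0166, and 2 passed, both higher in fibre1. UBE2O (ENSSSCG00000029901) encodes a large enzyme that works as an E2 and an E3 in one chain. It had 3.76, 5.07, 3.24 and 3.07 CPM in fibre2B pigs 10, 11, 14 and 16, and 4.92, 7.90 and 15.5 CPM as the lowest, median and highest of fibre1. With scaling factors only fibre1 pig 17 lay below the highest fibre2B pig. By column totals fibre1 pigs 5 (4.10 CPM) and 17 (4.72 CPM) lay below fibre2B pig 11 (5.77 CPM). The means of 8.69 ± 3.56 and 3.79 ± 0.906 CPM gave a log2 fold change of 1.19 ± 0.29 (edgeR adjusted p = 0.029), or 2.29-fold higher in fibre1. It ranged from 0.99 to 1.38 over the removal of single pigs, and its adjusted p rose above 0.05 when fibre1 pig 1 (0.051) or 2 (0.055) was left out, and likewise for fibre2B pigs 10 (0.070), 14 (0.094) and 16 (0.078). UBE2O also missed the threshold with no scaling factors, with the share of the 10 top genes as a covariate and without fibre1 pigs 5 and 6.

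UBE2D4 (ENSSSCG00000016722), of a family of E2 enzymes that serve many E3 ligases, had 163, 175, 113 and 143 CPM in fibre2B pigs 10, 11, 14 and 16. Its lowest, median and highest values in fibre1 were 189, 214 and 240 CPM. With scaling factors each fibre1 pig thus lay above each fibre2B pig. By column totals the groups overlapped, with 160 CPM in fibre1 pig 5 and 199 CPM in fibre2B pig 11. The means of 211 ± 18.1 and 149 ± 27.0 CPM gave a log2 fold change of 0.50 ± 0.14 (edgeR adjusted p = 0.043). It still passed on leaving out pig 7 or 12 of fibre1 or pig 11 of fibre2B, and its adjusted p ran from 0.053 to 0.140 when any other single pig was left out. UBE2D4 also missed the threshold with no filter on low counts and with no scaling factors. The same held with the share of the 10 top genes as a covariate and without fibre1 pigs 5 and 6, where its log2 fold change was 0.45. The family members UBE2D1, UBE2D2 and UBE2D3 are near-identical in sequence and had no row under their listed IDs. Rows without a symbol hold 20.7% of counts, and whether these genes are among them was not tested. How reads of the family were shared out is uncertain.

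**Figure D4:**
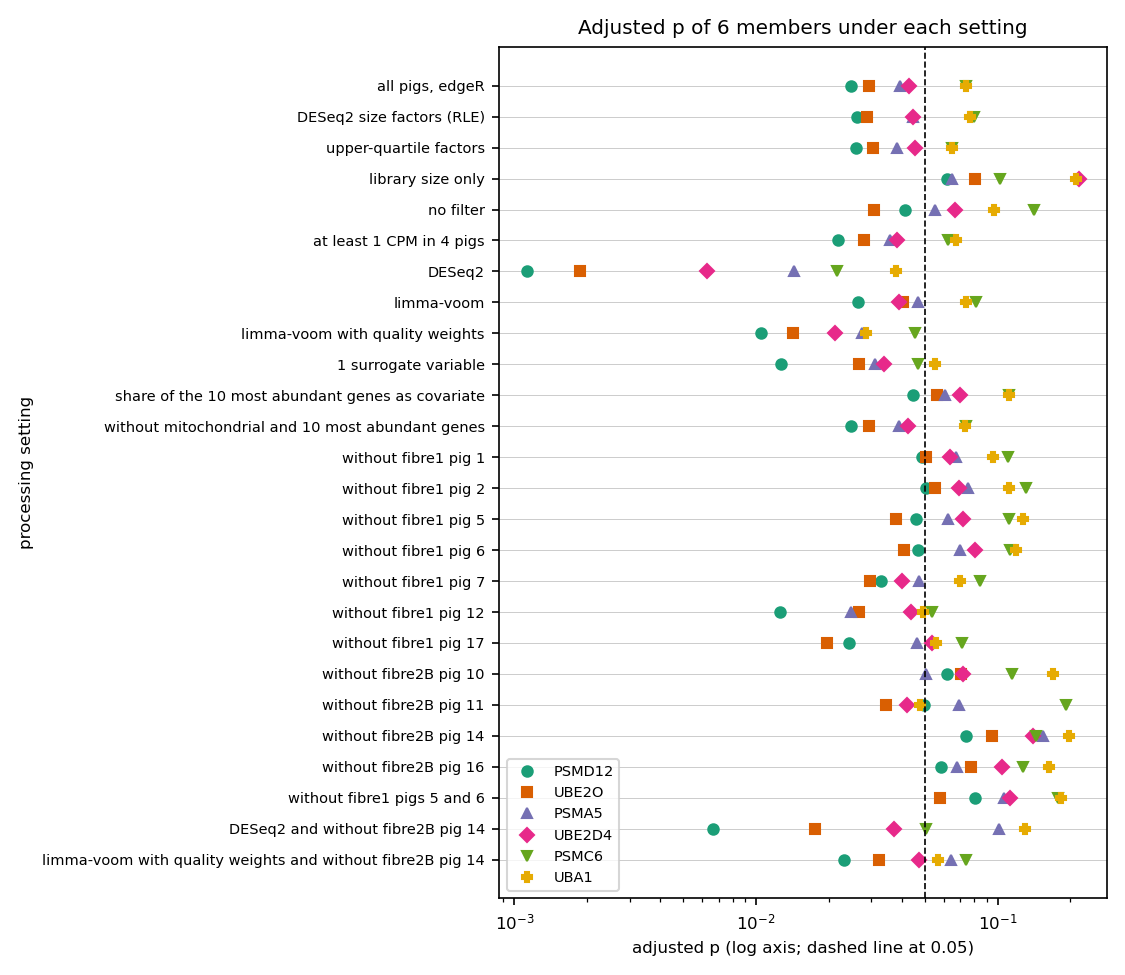
Adjusted p (horizontal log axis, dashed line at 0.05) of 6 genes (symbols) under the edgeR test with all pigs and under each of 25 other settings (lines). PSMD12 lies left of the line in most settings, and without fibre2B pig 14 in edgeR all 6 genes lie right of it, with PSMD12 at 0.074.

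Several other E2 genes had values above 0 without passing. UBE2Q1 had 42.9, 41.7, 33.6 and 48.2 CPM in fibre2B pigs 10, 11, 14 and 16 and 46.2, 53.9 and 67.4 CPM as the lowest, median and highest of fibre1. Its groups overlapped through fibre2B pig 16, with a log2 fold change of 0.38 ± 0.14 (edgeR adjusted p = 0.100). UBE2G2, which acts in the degradation of proteins from the endoplasmic reticulum, had 4.54, 6.15, 5.45 and 5.52 CPM in fibre2B pigs 10, 11, 14 and 16 and 5.33, 7.48 and 8.72 CPM as the lowest, median and highest of fibre1. Its groups overlapped, and its log2 fold change was 0.41 ± 0.16 (edgeR adjusted p = 0.111). It passed in 1 of the 25 other settings, which was edgeR without fibre1 pig 12 (0.049). UBE2J1 and UBE2J2, which are membrane enzymes of the same degradation route, had -0.19 ± 0.17 and 0.49 ± 0.20, so the 3 genes of that route did not lie on one side.

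The remaining E2 genes had values on both sides of 0. UBE2V1 and UBE2V2, variants without a catalytic cysteine that pair with UBE2N, had 0.12 ± 0.14 and -0.0622 ± 0.14. The ID listed as UBE2NL had -0.39 ± 0.17 (adjusted p = 0.155), with 76.7 CPM in fibre2B pig 14 and 34.5 to 55.5 CPM in the other 10 pigs. The ID table holds 0 entries for UBE2N, which the RefSeq gene table of pig names, so it is not settled which of the 2 genes that ID counts. UBE2C, an enzyme of mitosis, had at most 2.21 CPM, and UBE2H at most 1.48 CPM. UBE2Z, UBE2A, UBE2Q2, UBE2E1 and UBE2W had log2 fold changes between -0.21 and 0.16, each with an adjusted p of at least 0.336.

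Of 5 interferon-inducible genes of the set, 4 had their highest value in fibre2B pig 14, which was the highest pig for 16.7% of all genes tested. Interferon replaces core subunits by PSMB8, PSMB9 and PSMB10 and raises PSME1 and PSME2, and it raises UBA7 and UBE2L6, the E1 and E2 of the ubiquitin-like modifier ISG15. PSMB10 had no row under its ID. PSMB8 was listed at 0, and whether reads of it were counted on another row was not tested, so that 0 is not read as absence of its transcript. UBE2L6 (ENSSSCG00000023379) had 19.9 CPM in fibre2B pig 14 and 6.10, 10.23 and 7.76 CPM in pigs 10, 11 and 16, with 3.99, 6.21 and 11.5 CPM as the lowest, median and highest of fibre1. UBA7 had 10.5 CPM in pig 14 and 1.91 to 6.38 CPM in the other 10 pigs. PSMB9 had 3.75 CPM in pig 14 and 0.538 to 2.26 CPM in the others, from 11 to 76 counts. PSME2 had 69.4 CPM in pig 14 and 34.3 to 58.2 CPM in the others, while PSME1 had 44.7 CPM in pig 14, within the 24.7 to 57.6 CPM of fibre1.

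The log2 fold changes of UBE2L6, UBA7, PSMB9 and PSME2 with all pigs were -0.65 ± 0.34, -0.46 ± 0.31, -0.45 ± 0.43 and -0.19 ± 0.18, and 0 of these genes passed by edgeR. Without pig 14 they were -0.20, -0.0399, 0.11 and 0.0324. These genes were picked for having their highest value in pig 14, so their higher log2 fold changes without it follow from how they were picked. PSME1, which was not highest there, had 0.0732 without pig 14 in place of -0.0054. The interferon-stimulated genes outside the set were read beside these values. Their 15 listed genes with a row summed to 310 CPM in pig 14, 75.3 to 111 CPM in the other fibre2B pigs and 30.7 to 118 CPM in fibre1, and all 13 tested had values below 0, of which 2 passed. The immune cell markers summed to 29.9 CPM in pig 14, the highest of all pigs, against 6.64 to 23.3 CPM in the others. The part of either list in the values of UBE2L6, UBA7, PSMB9 and PSME2 was not tested.

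**Figure D5:**
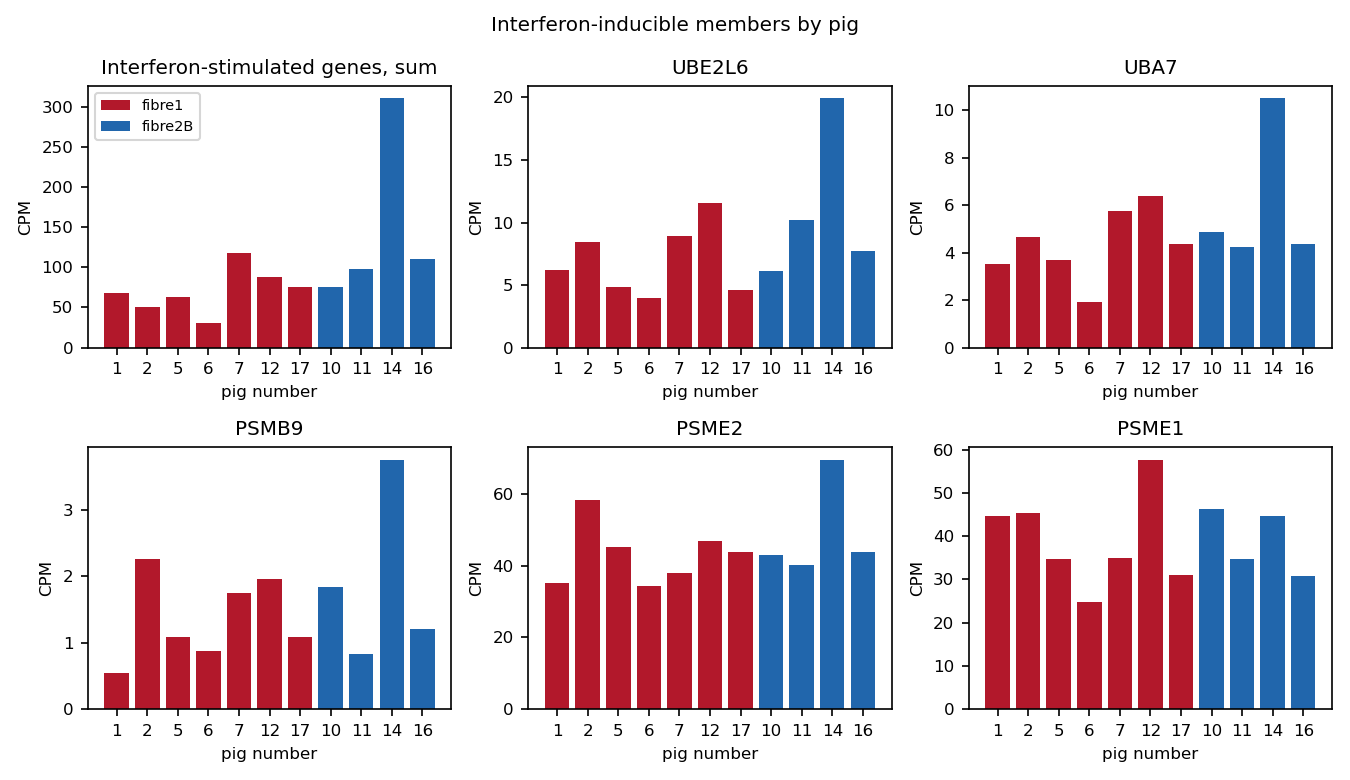
CPM (vertical axes, from 0) in each pig (horizontal axes, pig number; red fibre1, blue fibre2B) of the summed interferon-stimulated genes and of 5 interferon-inducible genes of the set. Pig 14 is highest for the sum (310 CPM), UBE2L6, UBA7, PSMB9 and PSME2, and not for PSME1.

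Other genes of the pathway, outside the 47, were read from lists. Of 7 tested E1 and E2 genes with other names 1 passed: BIRC6, which encodes a giant E2 that also inhibits apoptosis, was higher in fibre2B (18.1 ± 1.83 against 25.4 ± 2.26 CPM, log2 fold change -0.49 ± 0.12, edgeR adjusted p = 0.030). In that list MOCS3 had -0.35 ± 0.15 and SAE1, of the SUMO E1, had 0.22 ± 0.14, and the median was -0.14. Of 19 tested partners, shuttles and regulators of the proteasome 0 passed, with 13 values above 0 and a median of 0.0700. NPLOC4, a cofactor of the unfoldase VCP, had 0.61 ± 0.19 (adjusted p = 0.063), the shuttle gene UBQLN4 had 0.73 ± 0.24 (0.068) and TXNL1, a thioredoxin bound to the proteasome, had -0.33 ± 0.13 (0.127).

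NFE2L1, a transcription factor that drives proteasome genes, had 8.95 ± 4.59 against 4.91 ± 1.79 CPM (log2 fold change 0.87 ± 0.39, edgeR adjusted p = 0.165). Its groups overlapped, with 3.35 to 16.1 CPM in fibre1 and 2.27 to 6.24 CPM in fibre2B. Of 5 tested modifier genes 0 passed. The polyubiquitin gene UBB had -0.12 ± 0.17, SUMO2 had -0.29 ± 0.11 (adjusted p = 0.109), URM1 had 0.23 ± 0.11 and FAU had 0.11 ± 0.15. Of 7 tested antigen processing genes 0 passed, and the 3 with the smallest p were PDIA3 (-0.44 ± 0.16), TAPBP (0.62 ± 0.34) and CALR (-0.22 ± 0.16).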

How the data were processed

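The authors deposited a table of expected counts for each gene and pig, whole numbers that were not normalized. The submitters' processing notes list CASAVA 1.8.2, FastQC, STAR, RSEM, edgeR, DESeq2 and Sscrofa10.2, without roles. TruSeq libraries were made from total RNA, per the labels' protocols. Each pig has 1 column, joined by the number in its title, with 0 columns of other samples. Symbols were found for 11804 of 25322 rows, and 20.7% of counts lay on the others. The RefSeq table (Sscrofa11.1) served for names only. Isoform counts were not used. Values of some genes are not reported here, and 1 gene of the set is left out of the plots.

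The test was that of edgeR 4.0.16 (R 4.3.3; counts rounded, TMM factors, filterByExpr, quasi-likelihood F test, group term only), with Benjamini-Hochberg adjustment at 0.05. CPM are TMM-normalised. Column totals were used where named, in the rule of 1 CPM in 4 pigs and in the values of genes below it. Each SE was computed as the size of the log2 fold change over √F. The members and lists were chosen with earlier results of these data known. Named genes were those passing, the 3 smallest p and the largest fold per role list, the 6 smallest p besides, the highest and lowest by CPM, rows below the CPM rule, fixed catalytic, inducible and NFE2L1 genes, and per pathway list the 3 smallest p. Others were named after their values were seen. Alternatives used DESeq2 1.42.0, limma 3.58.1, sva 3.50.0, other scalings and filters, and fewer pigs. On simulated data over 11117 genes, 33% of 2-fold and 86% of 4-fold changes were recovered with 5.83% false calls.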

Additional observations from a re-analysis of the deposited data

Results flagged for a closer look

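A test of the gap between the most extreme pig and its nearest neighbour, over the range of its group, was run on the CPM of the 47 genes in each group. It marked 6 of 94 groups, where chance marks about 1 in 20. In fibre2B, pig 11 stood above the other 3 pigs in PSMC6 (126.7 CPM, others 103.1 to 104.6) and in UBA1 (81.62 CPM, others 53.01 to 56.16). Pig 14 stood above them in PSME2 (69.42 CPM, others 40.27 to 43.71) and in UBA7 (10.5 CPM, others 4.248 to 4.861). In fibre1, pig 12 stood above the other 6 pigs in PSMD5 (4.195 CPM, others 0.9821 to 1.711) and in UBE2C (2.213 CPM, others 1.04 to 1.424).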

How the results depend on the processing

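No paired analysis was possible because the groups share no replicate number. Of 750 values of 30 named genes under 25 alternatives 665 kept direction and side of the threshold. Most of the 30 genes did not pass with all pigs, so keeping their side mostly meant staying uncalled. Of the 4 that passed, PSMD12 passed in 19 of the 25 alternatives, UBE2O in 17, UBE2D4 in 13 and PSMA5 in 11. All genes called numbered 1021, but 157 without scaling factors, 1706 with DESeq2, 1748 with quality weights, 1623 with 1 surrogate variable, 460 with the top-10 share as covariate, 28 without fibre1 pigs 5 and 6, and 0 to 1548 without single pigs (0 without fibre2B pig 14, with 2436 at an unadjusted p under 0.05). The 2 calls higher in fibre1 were 0 without scaling factors, 1 with no filter, 0 with the covariate, 0 without pigs 5 and 6, and 0 to 4 without single pigs. The 2 higher in fibre2B were 0, 1, 1 and 0 in those settings and 0 to 2 without single pigs. Both counts were 0 without fibre1 pig 2 or fibre2B pig 10, 14 or 16. Without pig 14, DESeq2 and quality weights (chosen after seeing the data) called 771 and 1095 genes, 2 of the set higher in fibre1 and 1 higher in fibre2B. The 1 pathway call became 0 without scaling factors, with the covariate and without pigs 5 and 6, 3 with DESeq2, quality weights or the surrogate variable, 3 with quality weights and without pig 14, and 0 to 2 without single pigs. The 19S median of 0.19 was -0.0090 without scaling factors, 0.0644 with the covariate and 0.0556 without pigs 5 and 6, and 0.16 to 0.23 without single pigs. The cause was not tested. The 20S median ran from -0.30 to -0.10 and the E2 median from -0.0479 to 0.0868 without single pigs.

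Signs changed in 9 of the 30 named genes counted above, in none of which the value passed. Genes of the set outside that count also changed sign, such as UBE2Q2, at -0.0166 with all pigs and 0.0802 without pigs 5 and 6. Without scaling factors, where all genes had a median of -0.19, PSMB7 had -0.1754, PSMC1 -0.0090, PSME3 -0.2007 and UBE2V1 -0.0903. With the covariate PSMB7 had -0.0741, PSME1 0.1066 and PSME3 -0.0726, and without pigs 5 and 6 they had -0.0646, 0.1286 and -0.0626. PSME1 had 0.0010 with DESeq2 size factors, 0.0011 with DESeq2 and 0.0437 with quality weights, and PSME3 -0.0083 with upper-quartile factors. Without pig 14, DESeq2 gave PSMB9 0.1111, PSME1 0.0761, PSME2 0.0395 and UBE2V2 0.0945, and quality weights gave 0.0875, 0.0808, 0.0466 and 0.0544, with PSMB1 at 0.0322. Without single pigs PSMB7 ran from -0.0092 to 0.1622, PSMB9 from -0.7015 to 0.1062, PSME1 from -0.1273 to 0.0856, PSME2 from -0.2755 to 0.0324, PSME3 from -0.0353 to 0.1254 and UBE2V2 from -0.1311 to 0.0868. The simulation, with changed genes drawn from all genes tested, missed most 2-fold changes. The 47 genes had a median standard error of 0.17, against 0.23 over all genes, so that rate does not describe them. An estimate of the size seen here can still go uncalled, as that of UBA1 did at 0.61. Whether that estimate reflects a real difference is not settled.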
